A study of Mus musculus with 12 samples.

Results

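The proteasome genes were followed in 3 cell types of the mouse liver, namely hepatocytes, macrophages and the endothelial cells that line the sinusoids (SEC), in mice that had received diethylnitrosamine (DEN), a carcinogen that hepatocytes activate, and in untreated mice. They were taken as every array gene whose symbol starts with Psma, Psmb, Psmc, Psmd, Psme or Psmf followed by a digit, which gave 43 genes (the members) of 19053 genes with a named probe. The other inducible catalytic beta subunits were not analysed here, and no probe was matched to Psmf1. Each member was read by its brightest probe, judged by the mean of all 12 arrays. Of the 43 members, 38 were above background and were tested, among 12462 genes tested in all. Psma1, Psma3, Psma6, Psmb11 and Psmd3 had no probe above background on both arrays of any group and were not tested. 2 tested members, Psmc3ip and Psme3ip1, meet the rule by their letters but are not subunits: the first is named for binding an ATPase subunit and is known for its part in meiotic recombination, and the second for binding an activator.

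Total RNA was measured on 12 Illumina bead arrays, 2 for each of 6 groups, all from male wild-type C57Bl/6 mice. DEN hepatocytes, DEN macrophages and DEN SEC came from mice injected into the peritoneum with DEN at 25 mg/kg on day 25 after birth and kept for 9 months, with 3 to 4 mice pooled, and untreated hepatocytes, untreated macrophages and untreated SEC came from untreated mice of the same age. Whether both arrays of a group hold RNA of different pools is not stated, so p-values here reflect the spread from array to array, which may be technical only. Values are the authors' deposited values, which behave as log2 but may have been stabilised for variance, so folds are those of the deposited scale and are less exact near background. A change is a difference of log2 group means with its standard error (SE, n = 2 arrays per group), and a change passed the test at an adjusted p under 0.05 (limma, Benjamini-Hochberg over the 12462 genes). On each array, background was the level that a probe had to exceed to lie above 95% of 1501 probes reading olfactory or vomeronasal receptor genes.

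The proteasome is the large protease that degrades proteins tagged with ubiquitin. Its barrel, the 20S core, has outer rings of alpha subunits and inner rings of beta subunits, of which Psmb5, Psmb6 and Psmb7 carry the chymotrypsin-like, caspase-like and trypsin-like active sites. The 19S cap binds tagged proteins, removes the ubiquitin with its lid and unfolds and feeds the chain into the core with its ring of ATPases. Interferon gamma induces replacement beta subunits, Psmb10 taking the place of Psmb7, and the 11S activator made of Psme1 and Psme2, which opens the core without ubiquitin. When proteasome activity is short, the transcription factor encoded by Nfe2l1 is known to raise the genes of the constitutive particle through antioxidant response elements.

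Some facts of the arrays bear on all comparisons. Replicates correlated across genes with r between 0.9912 and 0.9984, and over the members the SD of their differences was 0.0929 (DEN SEC) to 0.146 (DEN hepatocytes). The number of probes above background was 14260 to 16128 in hepatocytes and 20106 to 21552 in the other cells, the lowest in DEN hepatocytes. Of 12 hepatocyte markers, all were above background in untreated hepatocytes and 10 in DEN hepatocytes, where Fgb and Tat were not. Of 10 SEC markers, all were above background in both SEC groups. Of 11 Kupffer cell markers, 10 were above background in both macrophage groups and Cd5l in neither, but their summed level on the log2 scale was 17.34 to 17.35 in untreated and 14.16 to 14.25 in DEN macrophages, the latter below the 16.15 to 16.17 of untreated SEC.

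Markers of other cells moved with DEN. In DEN hepatocytes, all 10 neutrophil markers rose (summed level from 10.78 on both untreated arrays to 15.08 on both DEN arrays), as did 7 of 8 monocyte markers (11.89 to 11.96, then 14.96 to 15.01) and 5 of 5 erythroid markers (11.21 to 11.38, then 16.83 to 16.85). Kupffer cell markers rose in 7 and fell in 1 of 10, with a summed level of 11.97 to 12.07 in untreated and 14.04 to 14.13 in DEN hepatocytes. Hepatocyte markers fell in 9 of 12, from 17.17 to 17.18 down to 16.74 to 16.75. In DEN macrophages all 10 tested Kupffer cell markers fell and all 10 neutrophil markers rose (13.10 to 13.11, then 15.78 to 16.06), and in DEN SEC 9 of 10 neutrophil and 5 of 5 erythroid markers rose. In DEN SEC 5 of 12 hepatocyte markers also rose (12.10 to 12.11, then 14.59 to 14.60). All 5 tested T and NK cell markers rose in DEN hepatocytes (9.97 on both untreated arrays, then 12.39 to 12.48) and in DEN macrophages (13.72 to 13.77, then 15.46 to 15.50). In DEN hepatocytes so did 4 of 4 platelet, 4 of 4 cholangiocyte, 6 of 7 stellate cell and fibroblast and 4 of 5 B and plasma cell markers. The summed level of the SEC markers was 12.38 to 12.39 in untreated and 12.97 to 13.02 in DEN hepatocytes. In macrophages it was 14.06 to 14.08, then 13.04 to 13.06, and that of stellate cell and fibroblast markers 13.32 to 13.41, then 10.68 to 10.76. B and plasma cell (11.48 to 11.51, then 12.97 to 12.99) and platelet markers (10.57 to 10.62, then 11.82 to 11.94) read higher there with DEN. Of all genes, 31.7% rose and 36% fell in hepatocytes, 18.6% and 24.3% in macrophages and 2.56% and 0.995% in SEC. The part of these other cells in the results that follow was not tested, and in such bulk samples fewer cells of a type and less RNA per cell cannot be told apart.

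The promoters of 5 members are shown. In DEN hepatocytes Psmb10 and Psmd4 rose, and Psmb5, Psmb6 and Psmd12 fell. The 5 were picked and do not stand for all members that rose or fell. Each window runs from 250 bases before to 50 after the RefSeq start on build GRCm38.p6, read 5′ to 3′ on the gene's strand. Capitals mark matches on either strand to 3 motifs: TGACNNNGC, the core of the antioxidant response element, CCAAT, the NF-Y box, and GAAANNGAA, the core of the interferon response element.
Psmb10 (chr8:105938343-105938642, minus strand): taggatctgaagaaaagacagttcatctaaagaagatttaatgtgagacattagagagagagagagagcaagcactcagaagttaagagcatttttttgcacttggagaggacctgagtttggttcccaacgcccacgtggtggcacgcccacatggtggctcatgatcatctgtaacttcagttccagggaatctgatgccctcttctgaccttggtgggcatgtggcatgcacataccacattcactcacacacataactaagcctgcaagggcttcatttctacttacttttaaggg
Psmb5 (chr14:54617946-54618245, minus strand): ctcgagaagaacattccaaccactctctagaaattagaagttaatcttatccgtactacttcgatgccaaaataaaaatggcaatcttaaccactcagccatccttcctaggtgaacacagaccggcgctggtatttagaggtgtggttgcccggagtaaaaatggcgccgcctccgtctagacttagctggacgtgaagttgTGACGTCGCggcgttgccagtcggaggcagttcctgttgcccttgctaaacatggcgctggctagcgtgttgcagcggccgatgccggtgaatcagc
Psmb6 (chr11:70525107-70525406, plus strand): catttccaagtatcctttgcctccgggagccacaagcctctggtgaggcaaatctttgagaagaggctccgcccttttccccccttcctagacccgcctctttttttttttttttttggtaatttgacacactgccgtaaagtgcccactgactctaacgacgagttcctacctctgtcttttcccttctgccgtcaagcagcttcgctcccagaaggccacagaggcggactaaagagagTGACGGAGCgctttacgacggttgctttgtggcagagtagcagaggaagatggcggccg
Psmd12 (chr11:107479278-107479577, plus strand): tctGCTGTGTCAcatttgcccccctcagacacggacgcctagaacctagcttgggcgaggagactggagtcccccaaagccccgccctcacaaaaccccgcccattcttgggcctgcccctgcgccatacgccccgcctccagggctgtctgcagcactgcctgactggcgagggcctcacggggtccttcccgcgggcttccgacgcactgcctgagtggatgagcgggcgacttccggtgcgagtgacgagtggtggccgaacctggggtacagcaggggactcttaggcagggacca
Psmd4 (chr3:95042565-95042864, minus strand): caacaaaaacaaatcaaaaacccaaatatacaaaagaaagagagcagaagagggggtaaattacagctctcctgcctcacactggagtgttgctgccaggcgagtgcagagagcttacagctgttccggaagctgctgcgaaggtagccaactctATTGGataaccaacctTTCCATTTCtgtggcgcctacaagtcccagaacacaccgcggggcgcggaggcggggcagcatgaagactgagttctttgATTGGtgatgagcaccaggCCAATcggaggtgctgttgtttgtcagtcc
The windows of Psmb5, Psmb6 and Psmd12 hold the antioxidant response core, that of Psmd4 holds CCAAT and the interferon response core, and the RefSeq window of Psmb10 holds none of the 3. Members with and without that antioxidant core fell. Of those not shown, Psmc6, Psmd9 and Psme4 hold it and fell, and Psma2, Psma7 and Psmc1 fell without it. Of the 36 members with a window, 6 (16.7%) held TGACNNNGC (Psmb5, Psmb6, Psmc6, Psmd9, Psmd12 and Psme4) against 14% of all 27025 genes with windows. CCAAT lay in the windows of 15 members (41.7%) against 41.1% of all genes. GAAANNGAA lay in those of 6 members (16.7%), namely Psmb3, Psmb4, Psmc2, Psmd4, Psmd9 and Psme1, against 9.76% of all genes. A match is a run of letters and was not tested as a binding site.

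In DEN hepatocytes most proteasome genes were lower than in untreated hepatocytes, while the inducible catalytic subunit Psmb10 was higher. Of the 38 tested members 27 fell, 3 rose and 8 did not pass, with a median change of -0.36. Of all genes tested, 36% fell and 31.7% rose, with a median change of -0.02. The 3 that rose were Psmb10, Psmd4 and Psmd1, of which Psmb10 rose at least 2-fold (10.2% of all genes did). 4 members fell at least 2-fold, Psmb7 and the lid subunits Psmd6, Psmd11 and Psmd12, against 8.7% of all genes. With the arrays scaled by cyclic loess over all 12, 31 members fell and 1 rose, with a median of -0.68. The median of all genes was then 0.03, and the share of all genes passing under that loess is not given here.

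**Figure D1:**
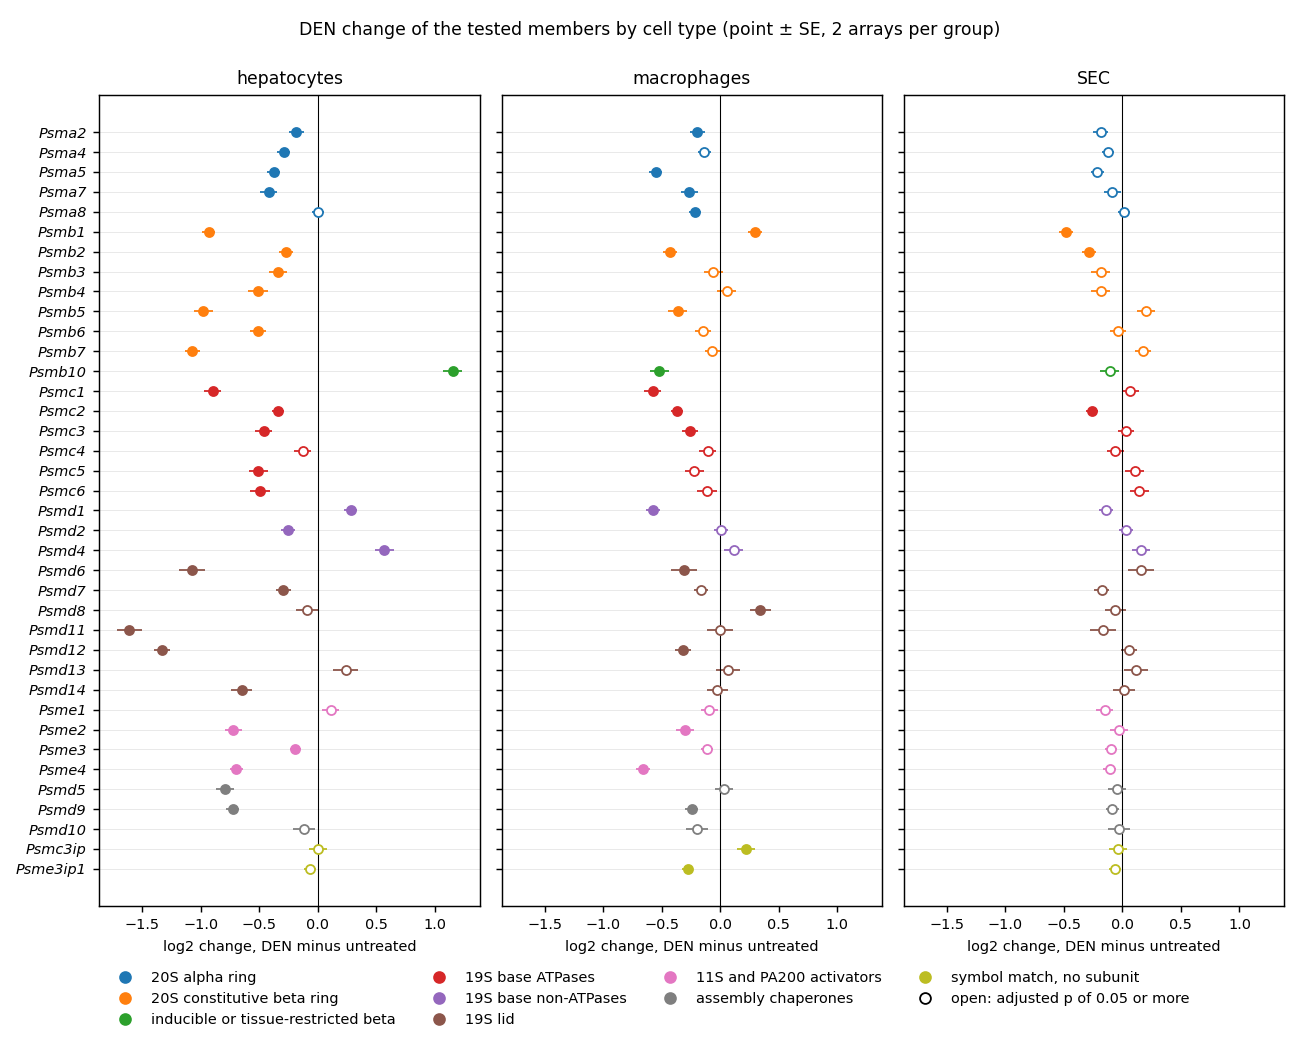
Log2 change of the 38 tested members in DEN against untreated cells (points, with SE bars, 2 arrays per group), in 3 panels for hepatocytes, macrophages and SEC, coloured by role, with open points where the change did not pass. Most hepatocyte points lie left of 0, apart from Psmb10 at 1.16 and a few others, the macrophage points reach no further than -0.66 and the SEC points crowd around 0.

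All 7 constitutive beta subunits fell in DEN hepatocytes, by a median of 0.51 on the log2 scale. Psmb7, the trypsin-like subunit, read 11.68 and 11.71 on the untreated and 10.73 and 10.51 on the DEN arrays, a change of -1.07 ± 0.07 (adjusted p = 5.99e-08). Psmb5, the chymotrypsin-like subunit and the main target of proteasome inhibitor drugs, read 9.92 and 9.95, then 8.81 and 9.10, a change of -0.98 ± 0.08 (adjusted p = 6.93e-07). Psmb6, the caspase-like subunit, read 11.70 and 11.71, then 11.10 and 11.28, a change of -0.51 ± 0.07 (adjusted p = 4.89e-05). The DEN arrays were the low ones for each of the 3 active-site genes, with no overlap between the groups. Counting both directions, the groups did not overlap for 34 of the 38 tested members and for 78.6% of all genes. The 4 other subunits, which carry no active site in the mature core, fell by 0.27 (Psmb2) to 0.93 (Psmb1). 4 probes above background read Psmb7, and all fell, by 1.07 to 1.77.

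Psmb10, which replaces Psmb7 in the immunoproteasome, moved the other way. It read 9.62 and 9.91 in untreated and 10.90 and 10.93 in DEN hepatocytes, a change of 1.16 ± 0.08, or 2.23-fold (adjusted p = 2e-07). Its second probe rose by 0.91 (adjusted p = 8.81e-06). The DEN hepatocyte values lay just under the 11.16 and 11.17 of untreated SEC and below the 11.66 and 11.54 of untreated macrophages. The DEN change of Psmb10 thus ran opposite to that of Psmb7 in the same arrays. Neutrophil, monocyte, Kupffer cell, T and NK cell, erythroid and other markers given above rose there too, and their part in it was not tested.

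**Figure D2:**
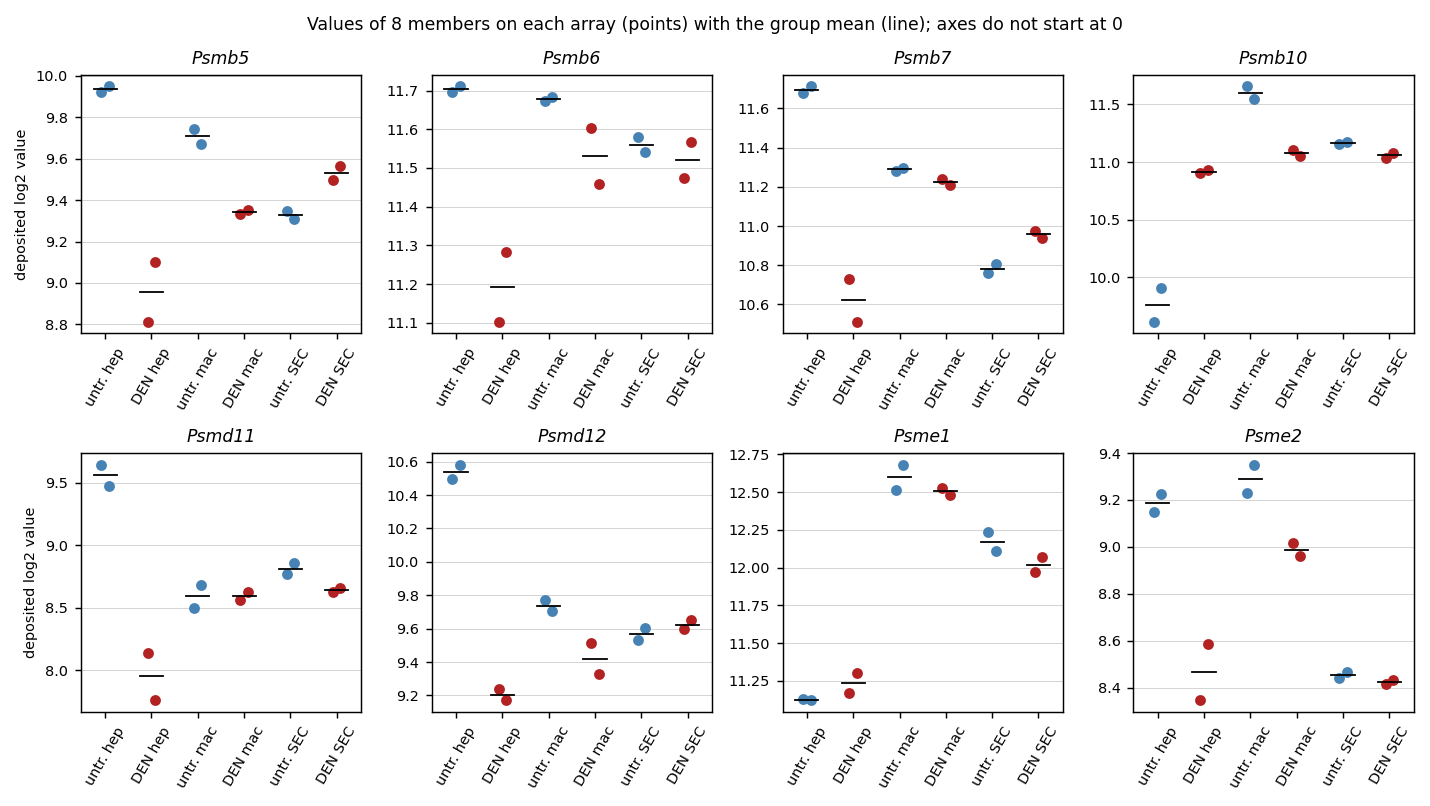
Deposited log2 values of 8 members on each of the 12 arrays (points, untreated in blue and DEN in red) with the group mean (line), each panel with its own axis that does not start at 0. Psmb10 climbs from 9.76 to 10.9 in hepatocytes, where Psmb5, Psmb6, Psmb7, Psmd11 and Psmd12 drop, and Psme1 stays near 11.1 to 11.2.

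Alpha subunits form the gate of the core. 4 of the 5 tested fell in DEN hepatocytes, and the tested members other than Psma8 ranged from -0.42 (Psma7) to -0.18 (Psma2). Psma7 read 10.71 and 10.85, then 10.43 and 10.29 (adjusted p = 3e-04). Psma8, a testis-restricted alpha subunit, was not well above background on either hepatocyte group's arrays, so no direction is given for it.

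The ring of 6 ATPases fell in 5 members, and Psmc4 did not pass (-0.13 ± 0.07, adjusted p = 0.138). Psmc1 had the largest fall, from 10.39 and 10.38 to 9.56 and 9.40, a change of -0.90 ± 0.07 (adjusted p = 8.21e-07). Psmc6 was not well above background in DEN hepatocytes and fell at least 1.33-fold (adjusted p = 0.000305), and the other 3 fell by 0.34 to 0.51. A second, dimmer probe gave larger falls for Psmc2 (-1.52 against -0.34) and Psmc5 (-1.29 against -0.51).

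Of the 3 non-ATPase subunits of the base 2 rose and 1 fell in DEN hepatocytes. Psmd4, a receptor for ubiquitin chains, read 11.51 and 11.58 in untreated and 12.13 and 12.10 in DEN hepatocytes, a change of 0.57 ± 0.08 (adjusted p = 7.78e-05). Its call was lost under cyclic loess over the 12 arrays (0.06, adjusted p = 0.525). Psmd1, the scaffold of the base, was named after its values were seen: it rose by 0.28 ± 0.06 (adjusted p = 0.00141) on its brightest probe, while its other probes fell by 0.62 and 0.94, so its direction depends on the probe. Psmd2 was close to background in every group and fell at least 1.08-fold in DEN hepatocytes (adjusted p = 0.00363).

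The lid held the 2 largest falls of all members. Psmd11, a scaffold subunit known to raise proteasome activity in human embryonic stem cells, read 9.65 and 9.47 in untreated and 8.14 and 7.76 in DEN hepatocytes. That is a change of -1.61 ± 0.11, or 3.05-fold lower (adjusted p = 1.63e-07), and its second probe fell by 1.28. Psmd12, another scaffold subunit of the lid, read 10.50 and 10.58, then 9.24 and 9.17, a change of -1.33 ± 0.07, or 2.52-fold lower (adjusted p = 1.18e-08). Its second probe fell by 1.34. Of the 7 tested lid subunits 5 fell, among them Psmd14, the deubiquitinase of the lid, by 0.65 and Psmd6 by 1.07. Psmd8 (-0.09) and Psmd13 (0.24) did not pass. Psmd7 fell by 0.30 on the probe used, but of its other probes the first fell by 1.51 and the second rose by 0.76, so the probes of Psmd7 disagree.

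Of the 4 activators 3 fell, and of the partners of the 11S ring Psme2 passed and Psme1 did not. Psme1 read 11.13 and 11.12 in untreated and 11.17 and 11.30 in DEN hepatocytes, a difference of 0.11 ± 0.07 that did not pass (adjusted p = 0.194). Its direction turned under cyclic loess over the 12 arrays (-0.46) and on its second probe (-0.28). Psme2 read 9.15 and 9.23, then 8.35 and 8.59, a change of -0.72 ± 0.07 (adjusted p = 5.81e-06). The mouse genome also holds Psme2b, a near-identical copy of Psme2, and which transcripts the Psme2 probe reads was not tested. Psme4, the large activator PA200, fell by 0.70, and Psme3, the nuclear 11S activator, by 0.19.

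The chaperones that assemble the base also fell where they passed. Psmd5 read 8.36 and 8.11 in untreated hepatocytes and was not well above background in DEN hepatocytes (7.43 and 7.45), at least 1.59-fold lower (adjusted p = 2.98e-06). Psmd9 was likewise at least 1.51-fold lower (adjusted p = 3.57e-07). Psmd10, known as gankyrin and raised in human liver cancer, did not pass (-0.12 ± 0.10, adjusted p = 0.292), though its other probes fell by 0.40 and 0.81. Neither of the symbol matches that are no subunits passed: Psmc3ip was not well above background in either hepatocyte group (7.49 and 7.49, then 7.50 and 7.48), and Psme3ip1 differed by -0.06.

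21 members had more than 1 probe above background. Of the 17 of these that passed in hepatocytes, all probes had the same sign in 15, and the exceptions were Psmd1 and Psmd7. Of the 26 other probes, 17 gave a lower change than the brightest probe in hepatocytes and 9 a higher one. In macrophages 5 gave a lower and 21 a higher change, and in SEC 10 a lower and 16 a higher.

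**Figure D3:**
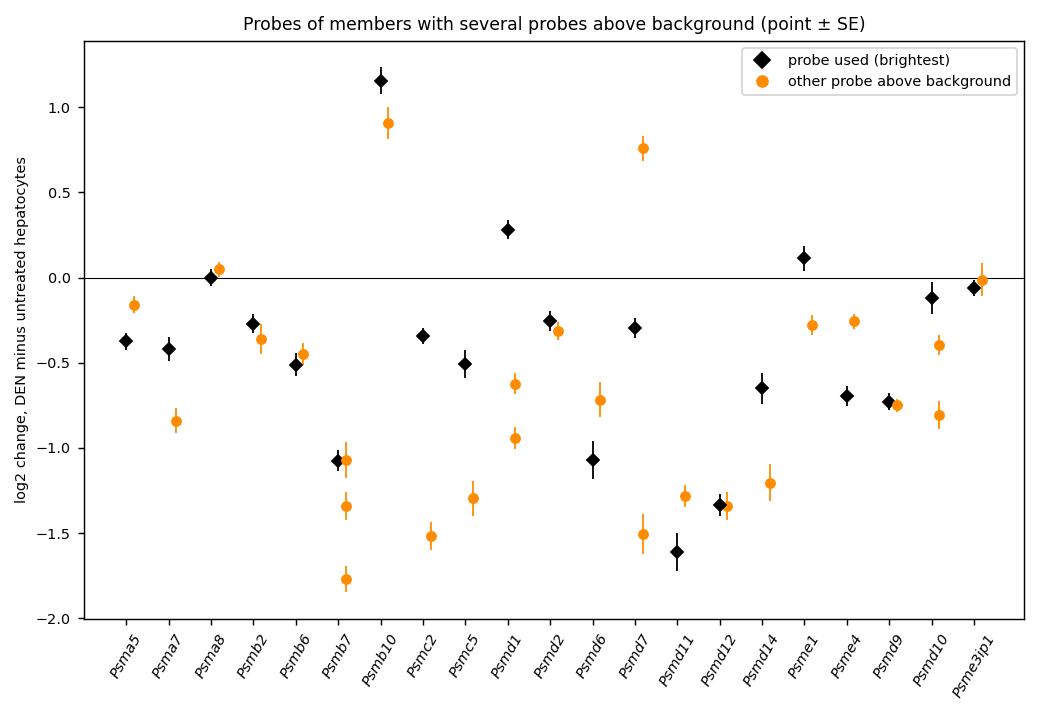
Log2 change in DEN against untreated hepatocytes for each probe above background of the 21 members with several such probes (black diamond, the brightest probe, which was used, and orange circles, the others, with SE bars). The probes of Psmb7 all lie between -1.77 and -1.07, while those of Psmd1 and Psmd7 fall on both sides of 0.

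In DEN macrophages fewer proteasome genes fell, and none changed at least 2-fold, against 2.88% of all genes rising and 3.72% falling that far. Of the 38 tested members 17 fell and 3 rose, with a median of -0.18, against 24.3% of all genes falling and 18.6% rising with a median of -0.02. Under cyclic loess over the 12 arrays the split was 13 falling and 5 rising, and on the second brightest probe 10 fell. The median of all genes was 0 under that loess and -0.01 on the second brightest probe. The shares of all genes passing under either are not given here. The 3 that rose were Psmb1 (11.06 and 11.11, then 11.34 and 11.43), Psmd8 (10.30 and 10.40, then 10.79 and 10.61) and Psmc3ip (7.82 and 7.72, then 8.12 and 7.85). These rises were small, by 0.30, 0.34 and 0.22 (adjusted p = 0.00162, 0.011 and 0.0384), and those of Psmd8 and Psmc3ip did not pass without the first untreated or the first DEN macrophage array, which left 1 rise in either case.

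Psmb10 fell in DEN macrophages, from 11.66 and 11.54 to 11.10 and 11.06, a change of -0.52 ± 0.08 (adjusted p = 0.000307). The largest fall was that of Psme4, from 10.47 and 10.57 to 9.79 and 9.93, a change of -0.66 ± 0.06 (adjusted p = 3.99e-06). That call rests on the brighter probe, since the dimmer probe of Psme4 gave -0.03. Among the other roles the largest falls were Psmc1 at -0.58 (10.27 and 10.15, then 9.55 and 9.72), Psmd1 at -0.57 (11.66 and 11.70, then 11.05 and 11.16) and Psma5 at -0.55 (12.21 and 12.24, then 11.70 and 11.64). Here all 3 probes of Psmd1 fell, while the second probe of Psma5 differed by only -0.07 and did not pass.

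Of the constitutive active-site genes only Psmb5 passed in macrophages. It fell by 0.36 (9.74 and 9.67, then 9.33 and 9.35, adjusted p = 0.00314), whereas Psmb6 (-0.15, adjusted p = 0.116) and Psmb7 (-0.07, adjusted p = 0.483) did not pass. Psmb2 fell by 0.43, from 11.94 and 11.85 to 11.54 and 11.40. Psme2 fell by 0.30 (9.23 and 9.35, then 9.02 and 8.96, adjusted p = 0.0069), a call lost without the second untreated (adjusted p = 0.0712) or the second DEN array (adjusted p = 0.051), and Psme1 did not pass (-0.09, adjusted p = 0.35). Psmd12 fell by 0.32, from 9.77 and 9.71 to 9.51 and 9.33, Psmd9 by 0.24, from 7.84 and 7.79 to 7.54 and 7.60, and Psme3ip1 by 0.28, from 9.44 and 9.53 to 9.21 and 9.20. The second probes of Psmd9 (-0.06) and Psme3ip1 (-0.08) did not pass.

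In SEC hardly any member changed. 3 of the 38 tested fell and 0 rose, against 0.995% of all genes falling and 2.56% rising. The 3 were Psmb1 (11.14 and 11.17, then 10.71 and 10.64, -0.48 ± 0.06, adjusted p = 0.000536), Psmb2 (11.89 and 11.84, then 11.57 and 11.59, -0.29 ± 0.06, adjusted p = 0.0188) and Psmc2 (12.18 and 12.09, then 11.91 and 11.84, -0.26 ± 0.05, adjusted p = 0.0154). Only 1 member fell without the first untreated, the first DEN or the second DEN SEC array. The second probe of Psmc2 gave 0.15 and that of Psmb2 -0.05, and neither passed. Psmb10 read 11.16 and 11.17 in untreated and 11.04 and 11.08 in DEN SEC, a difference of -0.11 that did not pass (adjusted p = 0.747). The differences of Psmb5 (0.20), Psmb6 (-0.04), Psmb7 (0.18), Psme1 (-0.15) and Psme2 (-0.03) did not pass either.

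The difference of the DEN changes was itself tested between cell types, and for each pair of cell types the share of members that differed lay near that of all genes. Between hepatocytes and macrophages, 22 of 38 members differed, 17 with the lower change in hepatocytes and 5 with the higher, against 63% of all genes (32.3% lower and 30.7% higher). Psmb10 had the largest difference, 1.68 ± 0.12 (adjusted p = 2.52e-07), rising in hepatocytes and falling in macrophages. Psmd11 differed by -1.61 ± 0.16 (adjusted p = 4.54e-06), Psmb1 by -1.23 ± 0.08 (adjusted p = 2.31e-07) and Psmd12 by -1.02 ± 0.10 (adjusted p = 3.3e-06). Psmb1 fell in hepatocytes and rose in macrophages. Between hepatocytes and SEC, 23 members differed, 19 lower and 4 higher, against 59.6% of all genes (30.1% lower and 29.5% higher). The largest were Psmd11 (-1.44 ± 0.16, adjusted p = 1.15e-05), Psmd12 (-1.39 ± 0.10, adjusted p = 2.62e-07), Psmb10 (1.26 ± 0.12, adjusted p = 2.71e-06) and Psmb7 (-1.25 ± 0.09, adjusted p = 5.22e-07).

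Between macrophages and SEC 12 members differed, 10 with the lower change in macrophages and 2 with the higher, against 33% of all genes (17.7% lower and 15.3% higher). Psmb1 differed by 0.78 ± 0.08 (adjusted p = 2.79e-05), since it rose in macrophages and fell in SEC. Psmc1 differed by -0.64 ± 0.10 (adjusted p = 0.00066), Psmb5 by -0.57 ± 0.11 (adjusted p = 0.00243) and Psme4 by -0.55 ± 0.08 (adjusted p = 0.000384). The difference of Psme4 did not pass on its second probe (-0.04). Without the second DEN SEC array 7 members differed.

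In untreated cells Psmb10 and Psme1 were lower in hepatocytes than in either other cell type. Psmb10 was lower in untreated hepatocytes (9.62 and 9.91) than in untreated macrophages (11.66 and 11.54), a difference of -1.84 ± 0.08, or 3.58-fold (adjusted p = 2.82e-09). Against untreated SEC (11.16 and 11.17) it was lower by 2.65-fold (adjusted p = 2.81e-08). Psme1 read 11.13 and 11.12 in hepatocytes, 12.52 and 12.68 in macrophages and 12.23 and 12.11 in SEC, so it was 2.77-fold lower in hepatocytes than in macrophages (adjusted p = 7.06e-09) and 2.06-fold lower than in SEC (adjusted p = 1.35e-07). Both genes kept these directions under cyclic loess over the 12 arrays, where the differences of Psme1 were -0.60 and -0.24. Macrophages had more of both than SEC, by 0.43 for Psmb10 (adjusted p = 0.00102) and 0.43 for Psme1 (adjusted p = 0.000498), though the second probe of Psmb10 did not pass there (0.13).

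Psme2, the partner of Psme1, read 9.15 and 9.23 in untreated hepatocytes, 9.23 and 9.35 in macrophages and 8.44 and 8.47 in SEC, with no passing difference between hepatocytes and macrophages (-0.10, adjusted p = 0.259). It was higher than in SEC in hepatocytes (0.73, adjusted p = 4.38e-06) and in macrophages (0.84, adjusted p = 3.33e-06).

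Several other members, among them the base chaperone Psmd5, were highest in untreated hepatocytes. Psmd11 was higher there than in macrophages by 0.97 (8.50 and 8.69 in macrophages) and than in SEC by 0.75 (8.77 and 8.86), and Psmd12 by 0.80 and 0.97 (9.53 and 9.61 in SEC). Psmb7 was higher than in macrophages (11.28 and 11.30) by 0.41 and than in SEC (10.76 and 10.80) by 0.91, and Psmd5 by 0.60 and 0.68. All of these passed, with an adjusted p of 0.00021 or less. Psmd11 and Psmd12, the members with the largest falls in DEN hepatocytes, thus read highest in untreated hepatocytes, and in DEN hepatocytes they read below every macrophage and SEC array. The falls and the higher untreated levels share the same 2 untreated hepatocyte arrays, so they are not independent.

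Over all members, the untreated comparisons of hepatocytes with the other cell types had no settled direction. Of the 38 tested, 12 were higher and 14 lower in hepatocytes than in macrophages, against 27.8% and 36.5% of all genes, and 15 were higher and 10 lower than in SEC, against 28.3% and 38.9%. Under cyclic loess over the 12 arrays these splits became 28 higher and 5 lower, and 31 higher and 5 lower. The median differences of all genes were then -0.02 and -0.03, and the shares of all genes passing under that loess are not given here. Without the first untreated macrophage array 7 members were higher in hepatocytes than in macrophages. Psma2 (12.12 and 12.17 in hepatocytes), Psmb2, Psmc2 and Psmd1 were lower in hepatocytes than in both other cell types, but each was higher under that loess, so their direction rests on the scaling. Between macrophages and SEC 10 members were higher and 3 lower in macrophages, against 23.2% and 22.2% of all genes, and leaving out each array of these groups in turn gave 8 to 10 higher and 2 to 3 lower. The split was 10 and 4 under cyclic loess, where the median difference of all genes was 0 and the share of all genes passing is likewise not given. The higher members included Psma7 at 0.58, Psmd10 at 0.59, Psmc1 at 0.55, Psmb7 at 0.51, Psmb5 at 0.38 and Psmd14 at 0.35. Psmd7 (-0.45), Psmd1 (-0.30) and Psmb4 (-0.27) were the 3 lower, and Psmd7 read higher on its second probe (0.30).

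**Figure D4:**
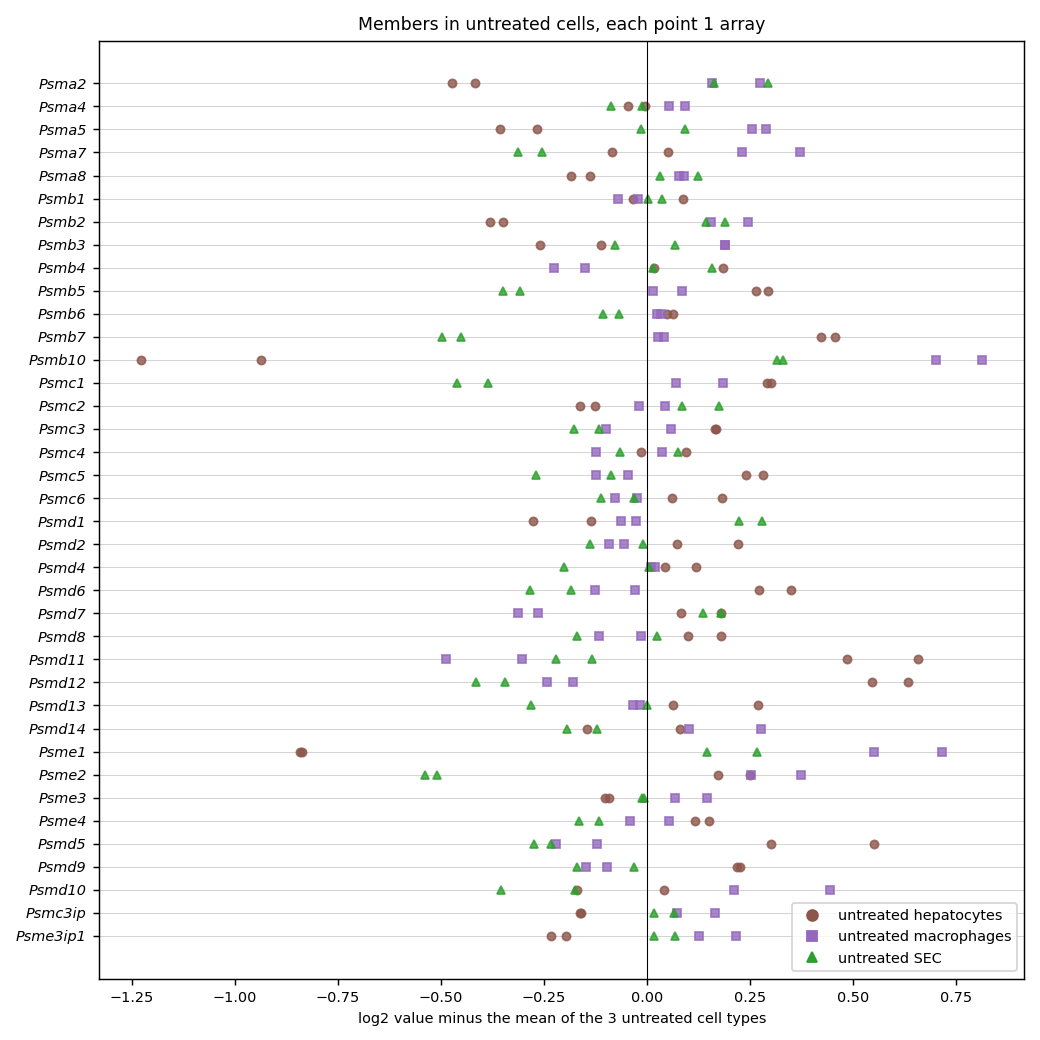
Log2 value of each tested member on the 6 untreated arrays, after subtracting the mean of the 3 untreated groups (brown circles, hepatocytes, purple squares, macrophages, green triangles, SEC). Psmb10 and Psme1 in hepatocytes lie farthest to the left, and Psmd11 and Psmd12 in hepatocytes far to the right.

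The genes that build and serve the proteasome were read from lists drawn up with earlier results of these data known. For comparison with each list, 36% of all genes fell and 31.7% rose in DEN hepatocytes. In DEN macrophages 24.3% fell and 18.6% rose, and in DEN SEC 0.995% fell and 2.56% rose. Of the 8 assembly factors outside the symbol rule 5 were tested, and in DEN hepatocytes 4 fell and 1 rose, with a median of -0.88. Psmg2 (-1.32), Psmg1 (-1.12) and Psmg3 (-0.88), chaperones of the core's alpha ring, fell most, and Ecpas, a scaffold that stabilises the assembled proteasome in yeast, rose by 0.37. In macrophages 1 fell, Pomp, the maturation factor of the core (-0.32), and in SEC none of the 5 passed. Of 8 tested ubiquitin receptors and deubiquitinases bound to the proteasome, 5 fell and 2 rose in DEN hepatocytes and 3 fell and 1 rose in macrophages. Rad23b, a shuttle that brings tagged proteins, fell by 0.94 in hepatocytes and 0.47 in macrophages, and Usp14, a deubiquitinase of the cap, by 0.77 in hepatocytes. Sem1, a small lid subunit that the symbol rule does not catch, rose by 0.64 in hepatocytes. Zfand2a, an arsenite-inducible partner of the cap, rose by 0.95 in macrophages. None of the 8 passed in SEC.

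The list of the Nfe2l1 axis went unevenly. In DEN hepatocytes 3 of 6 rose and 1 fell, against 31.7% and 36% of all genes, so the share passing lay near that of all genes. Nfe2l1 rose by 0.73 ± 0.08 (adjusted p = 1.12e-05), Vcp, the unfoldase that extracts its protein from the membrane, by 0.57 and Mafg, a small partner factor, by 0.33. Nfe2l1 rose in the arrays in which most subunit genes fell, and a link between these changes was not tested. In macrophages Nfe2l1 fell by 0.44 and Nfe2l2, the related factor of the oxidative stress response, rose by 1.01. There 3 of 6 rose and 2 fell in all, against 18.6% and 24.3% of all genes. In SEC 1 of 6 fell, Mafg (-0.40), against 0.995% of all genes.

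Interferon gamma signalling and class I presentation are the setting of the immunoproteasome. Of 9 tested genes of the interferon gamma axis, 5 rose and 1 fell in DEN hepatocytes, where 31.7% of all genes rose and 36% fell. The share passing in either direction thus lay near that of all genes. Irf1, the factor that induces immunoproteasome genes, rose by 1.37 ± 0.09 (adjusted p = 1.7e-07), Irf8, a factor of myeloid and lymphoid cells, by 1.23, and the receptor chain Ifngr2 by 5.44, from a mean of 8.31 to 13.8. Markers of neutrophils, monocytes, T and NK cells and others given above rose in the same arrays, and their part in these rises was not tested. In macrophages 3 rose and 2 fell, against 18.6% and 24.3% of all genes. Among them were Ifngr2 (1.39), Jak2 (0.91) and Nlrc5 (0.70) upward and Irf1 (-0.59) downward, and in SEC none of the 9 passed. Of 12 genes of peptide trimming, transport and class I, 5 rose and 3 fell in hepatocytes, so that the share passing lay near that of all genes. Of these genes 5 fell in macrophages and 2 fell in SEC, against 24.3% and 0.995% of all genes. In hepatocytes the largest were Calr, a chaperone of class I assembly (-1.73), B2m, the light chain (-0.60), and Tap2, a chain of the peptide transporter (0.54). Pdia3, another class I chaperone, fell by 1.24 in macrophages and 0.87 in SEC, and H2-D1 by 0.97 in macrophages.

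Of 4 tested genes of ubiquitin and its activating and conjugating enzymes, 3 rose and 1 fell in DEN hepatocytes, against 31.7% and 36% of all genes. Uba6, an alternative ubiquitin-activating enzyme, rose by 4.25 ± 0.06 (adjusted p = 1.08e-12), from a mean of 8.09 to 12.3. Erythroid and other markers given above rose in the same arrays, and their part in it was not tested. In macrophages Uba6 rose by 0.66 and Ube2n (-1.16), Ube2l3 (-0.74) and Ube2d3 (-0.22) fell, and in SEC none of the 4 passed. Autophagy, the other main route of protein breakdown, was read beside the subunits: 9 of 13 tested genes fell and 3 rose in DEN hepatocytes (median -0.38), 6 fell and 0 rose in macrophages (median -0.18), and none passed in SEC. Of all genes 36% fell and 31.7% rose in hepatocytes, and 24.3% fell and 18.6% rose in macrophages. The largest autophagy changes were Atg5 (-1.07) and the cargo receptors Sqstm1 (-1.05) and Tax1bp1 (0.74) in hepatocytes, and Gabarapl1 (-0.80), Map1lc3a (-0.65) and Atg5 (-0.50) in macrophages.

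**Figure D5:**
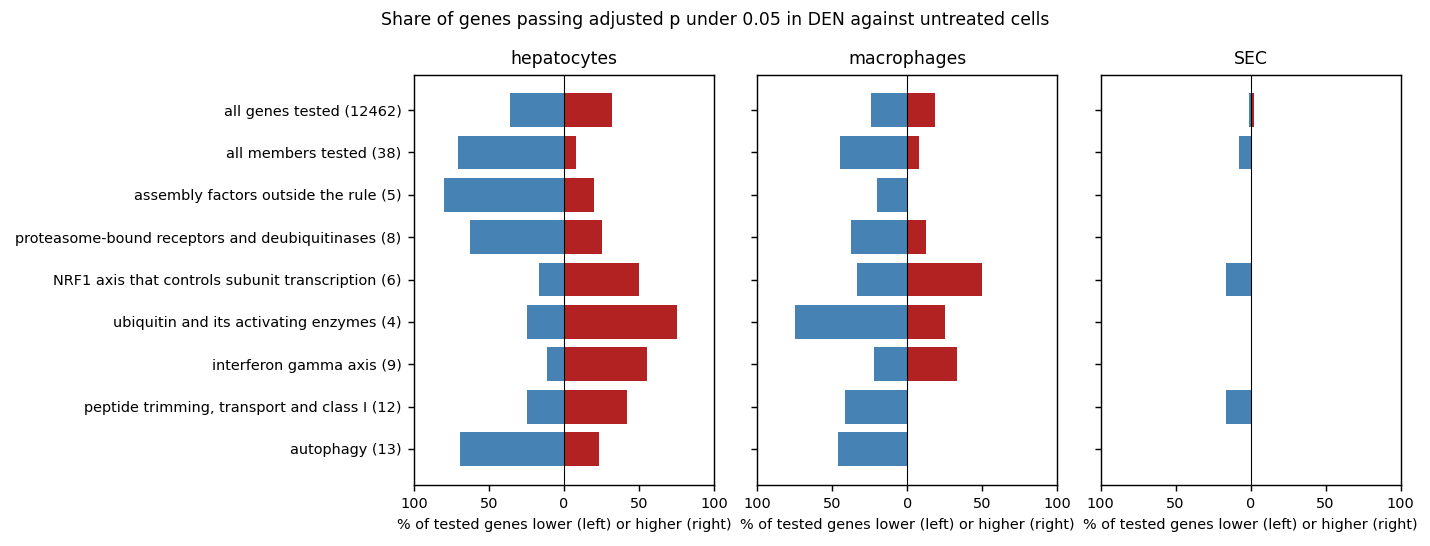
Share of tested genes that fell (blue, left) or rose (red, right) in DEN against untreated hepatocytes, macrophages and SEC, for all genes, the members and 7 related lists, with the number of tested genes in brackets. In hepatocytes 27 of 38 members and 9 of 13 autophagy genes lie on the falling side, against 36% of all genes.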

How the data were processed

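The 43 members, the roles and the lists were chosen with earlier results of these data known. The authors' deposited values behave as log2 intensities. The submitters' processing notes name lumi, with no transform stated. If it was variance-stabilising, differences near the floor would be smaller than true log2 differences, and the folds are of the deposited scale. Every array has a minimum of 7.19, a median of 7.41 and a maximum of 15.19, so the arrays had been scaled to each other. A non-normalized table holds 12 signal columns that match no sample label and was not used. Of 45281 probes, 34885 had 1 gene symbol, 18 had several and 10378 had none. Names came through the Entrez ID for 34807, an accession for 11 and the platform's symbol for 67, with 10 updated, from a RefSeq gene table of assembly GRCm38.p6. A probe was kept if it was above background on both arrays of at least 1 group (24155 probes). Two-sided moderated tests came from lmFit and eBayes of limma 3.58.1 (R 4.3.3), with a mean for each of the 6 groups, 6 residual degrees of freedom and Benjamini-Hochberg adjustment. The fit was also run on simulated data. There, few genes changed and the noise of the arrays was independent, unlike these data, so that run does not bear on the calls given here. With 2 arrays per group, their number limits the precision. The planned comparison of protein sequences was not run. For a gene not well above background in the lower group, "at least" folds set the brighter mean against the lowest signal above background there.

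Values on each array were given for the largest passing rise and fall of each role in each comparison and for Psmb5, Psmb6, Psmb7, Psmb10, Psme1, Psme2 and Psmc3ip, for differences of the DEN change the 4 largest, and for the lists up to 3 passing genes of largest change per cell type. Other named genes were chosen after their values were seen. Alternatives were the scaling, the background, the filter, the choice of probe, the fit and leaving out each array. Figures were drawn with matplotlib 3.10.9.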

Additional observations from a re-analysis of the deposited data

Results flagged for a closer look

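The differences given here are of the DEN change on the log2 scale between cell types, each tested as an interaction in limma over all 12462 genes (4 arrays per cell type). Psmb10 differed by 1.68 between hepatocytes and macrophages and by 1.26 between hepatocytes and SEC. Psmd11 differed by -1.61 and -1.44 in the same comparisons, and Psmd12 by -1.02 and -1.39. Psmb1 differed by -1.23 between hepatocytes and macrophages and by 0.78 between macrophages and SEC. Psmb7 differed by -1.25 between hepatocytes and SEC. Psmc1, Psmb5 and Psme4 differed by -0.64, -0.57 and -0.55 between macrophages and SEC. These comparisons share arrays with one another. Groups of 2 arrays are too small for a test of outlying arrays.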

How the results depend on the processing

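Of 219 counts of members recomputed under alternatives, 198 lay within 1.5 times the reported count. The shares of all genes passing under these alternatives are not given here. Under cyclic loess over the 12 arrays, 1 member rose in DEN hepatocytes and 5 in DEN macrophages, 28 were higher and 5 lower in untreated hepatocytes than in macrophages, and 31 higher and 5 lower than in SEC. With the second brightest probe, an alternative chosen after seeing the data, 10 members fell in DEN macrophages and 1 in DEN SEC, 7 differed between macrophages and SEC, 6 were lower in untreated hepatocytes than in SEC and 1 lower in macrophages than in SEC. In DEN SEC 1 member fell under loess within each cell type or with the mean of a gene's probes, and 1 rose with the cell type fitted alone. Leaving out each array in turn, 26 to 27 members fell and 3 to 4 rose in DEN hepatocytes, 13 to 16 fell and 1 to 3 rose in macrophages, and 1 to 2 fell and 0 rose in SEC. Differing changes then numbered 18 to 22 (hepatocytes and macrophages), 19 to 24 (hepatocytes and SEC) and 7 to 12 (macrophages and SEC). Untreated hepatocytes had 7 to 11 members higher and 11 to 14 lower than macrophages, and 12 to 17 higher and 9 to 10 lower than SEC, and macrophages 8 to 10 higher and 2 to 3 lower than SEC. Directions of 19 named values turned. Under loess over the 12 arrays, Psme1 went to -0.46 in DEN hepatocytes, and untreated hepatocytes became higher than macrophages in Psma2 (0.36), Psmb2 (0.20), Psmc2 (0.69) and Psmd1 (0.64) and than SEC in Psma2 (0.27), Psmb2 (0.17), Psmc2 (0.51) and Psmd1 (0.27). With the mean of probes, Psmc2 (0.12 and 0.17 against macrophages and SEC) and Psmd1 (0.078 against macrophages) turned. With the second probe, Psme1 (-0.28, DEN hepatocytes), Psmc2 (0.15, DEN SEC; 0.40 and 0.60, untreated hepatocytes against macrophages and SEC), Psmd1 (0.11 against macrophages), Psmb2 (0.02 against SEC) and Psmd7 (0.30, macrophages against SEC) turned. The cause was not tested. None of the 12 named differences of the DEN change turned. With the replicate number as a block, 27, 17 and 3 members fell in DEN hepatocytes, macrophages and SEC, as without it. Same-numbered arrays did not deviate together (r of deviations -0.06 to 0.08). With 1 difference between arrays per group, this cannot show whether same-numbered arrays come from the same mice.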
